A study of Danio rerio with 9 samples.

Results

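RNA that had taken up a thiol-modified uridine was set against RNA without it in zebrafish (Danio rerio) embryos at the 256-cell stage, in 3 of the 9 libraries of the series. Genes were placed by whether their level lay above that of the unlabelled library in both labelled libraries, with the nuclear and the mitochondrial genome kept apart. By this rule 4759 of 8956 nuclear gene IDs and 13 of 13 mitochondrial genes lay above, which is 53.2% of all 8969 IDs. Another 919 nuclear IDs (10.2% of all) lay below in both libraries, and 3278 did neither. No mitochondrial gene lay below.

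All embryos were AB wild type and whole. The labelled 256-cell group has 2 libraries from embryos that received 4-thio-UTP, a uridine analogue (1 nl at 50 mM), at the 1-cell stage. The labels call them technical replicates, so every p-value below measures technical spread only. The unlabelled 256-cell group has 1 library, whose RNA went through the same biotin coupling and streptavidin purification. The labels give the injection protocol for every sample and do not say what the unlabelled embryos received. The 128-cell and 512-cell stages have the same layout, with 2 labelled libraries and 1 unlabelled library each. The embryos were not sorted into cell types, so fewer cells of a type and less RNA per cell cannot be told apart.

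The zebrafish egg is loaded with RNA from the mother, and the first divisions run on that store. Transcription of the nuclear genome starts during the cleavage stages and becomes widespread at the midblastula transition, and the earliest genes include many that encode transcription factors. Mitochondria carry their own small genome, copied from the egg, which a separate RNA polymerase reads as long transcripts that are then cut into single RNAs. A uridine analogue given at fertilization enters RNA made afterwards, so purification on the thiol group enriches new RNA over the maternal store, together with whatever the beads carry over.

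Levels are FPKM, in which fragments are divided by the length of the transcript and by the size of the library. The median FPKM was 3.21 in labelled replicate 1 and 1.49 in labelled replicate 2, against 1.35 in the unlabelled library. IDs listed at 0 numbered 20 and 69 in the labelled libraries and 359 in the unlabelled library. The 10 most abundant IDs took 51.2% and 54.2% of the summed FPKM in the labelled libraries and 80.7% in the unlabelled library. Across 7697 genes, Spearman's correlation was 0.855 between the labelled replicates. It was 0.715 between replicate 1 and the unlabelled library and 0.799 between replicate 2 and the unlabelled library. The correlation is across genes, which are not independent replicates. No counts were used here and no common step was found among low values, so the depth of the libraries is unknown.

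The placing of genes as above or below moved with the scale of the libraries. Replicate 1 stood higher than replicate 2 in 8139 of 8956 nuclear IDs. Dividing each library by its median-of-ratios size factor (1.699 and 0.804 labelled, 0.774 unlabelled) left 3584 nuclear IDs above and 3158 below in both labelled libraries. Scaling to the upper quartile gave 3445 above and 3268 below, and scaling to 1 common nuclear sum gave 1794 above and 1107 below. At the edge of the rule, ZNF395 was counted in with 25.7 and 8.404 FPKM labelled against 8.399 FPKM unlabelled. The gene clk4a was counted out with 2.56 and 1.991 FPKM labelled, also against 1.991 FPKM unlabelled.

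A stricter description asked for at least 4-fold in FPKM + 1 in both labelled libraries. Above the unlabelled library this held for 156 nuclear IDs and all 13 mitochondrial genes, together 1.88% of all IDs. Below it, it held for 11 IDs (0.123%), all nuclear and all without a gene symbol. On the upper side the nuclear count was 152 with size factors, 156 at the upper quartile and 122 with 1 nuclear sum. The tested fold was the limma estimate on log2(FPKM + 1), which understates the change of low genes. All 9 libraries shared 1 estimate of the spread, with the single unlabelled library assumed to vary like the labelled replicates. At a Benjamini-Hochberg adjusted p of 0.05 over 7697 tested genes, 87 genes (1.13%) rose in labelled RNA, 78 nuclear and 9 mitochondrial. The number of genes that fell by limma was 0, and at an unadjusted p under 0.05 there were 301 higher and 25 lower genes. With size factors, 5 nuclear genes passed as lower. The fit has no term for the replicate number. With such a replicate block, 1105 to 3498 nuclear genes passed as higher and 102 to 709 as lower, depending on how it was set up.

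**Figure D1:**
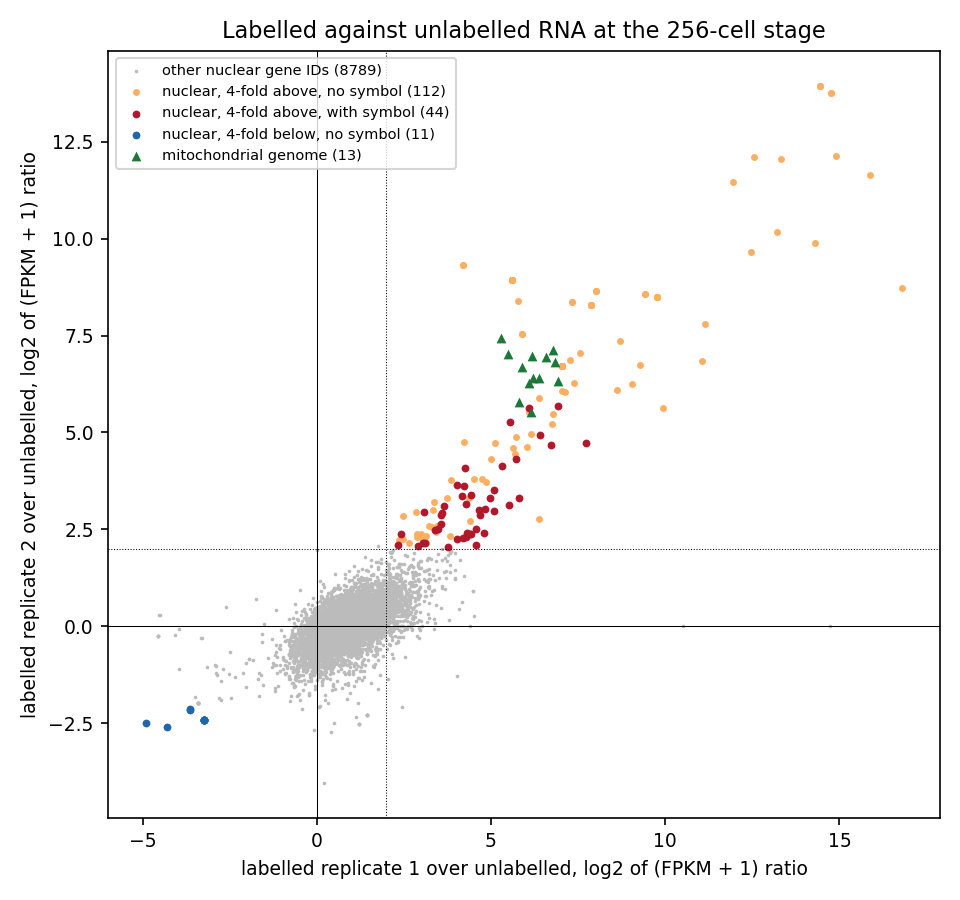
Each point is 1 gene ID, with the log2 ratio of FPKM + 1, labelled over unlabelled at the 256-cell stage, for labelled replicate 1 on the x axis and replicate 2 on the y axis; dotted lines mark 4-fold. The 13 mitochondrial genes and 156 nuclear IDs lie past 4-fold in both replicates, and 11 IDs lie past 4-fold on the lower side.

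The plot of the 2 replicates shows a dense body of genes near the origin and a separate arm to the upper right. All 44 nuclear IDs with a symbol past 4-fold lie to the right of the diagonal, with the higher ratio in replicate 1. So do 8139 of all 8956 nuclear IDs. The mitochondrial genes form a tight group within the arm.

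Every protein-coding gene of the mitochondrial genome was far more abundant in labelled RNA than in unlabelled RNA. Their FPKM summed to 730752 and 1015670 in the labelled libraries, against 9189.29 in the unlabelled library, which is 79.5-fold and 111-fold. They made up 22.2% and 17.7% of all FPKM in the labelled libraries and 0.367% in the unlabelled library. In single genes the fold ranged between 39.5 and 123 in replicate 1 and between 46.3 and 175 in replicate 2. By limma 9 of the 13 rose. Log2 changes of single genes are given from here on above the median of all tested genes, which was 0.43 on the deposited scale. The SE and the limma p-value belong to the fitted change before that median is taken off. No test was made of the change above the median.

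Genes of NADH dehydrogenase, complex I of the respiratory chain, make up 7 of the 13. The highest was mt-nd4l, with 321298 and 316522 FPKM in labelled RNA against 2782.14 FPKM in unlabelled RNA, and it rose by a log2 of 6.41 ± 0.88 (SE; limma adjusted p = 0.0122). MT-ND4 had 38322.1 and 49384.6 FPKM labelled against 349.656 FPKM unlabelled, and it had the largest log2 change of the 13 at 6.53 ± 1.17 (SE; limma adjusted p = 0.0216). MT-ND5 had 26892.8 and 34480.7 FPKM labelled against 278.559 FPKM unlabelled (limma adjusted p = 0.0211). On the deposited scale the 2 labelled libraries were close to each other in these 3 genes, and both stood far above the unlabelled library.

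MT-ND1 also rose, with 8124.5 and 8241.42 FPKM labelled against 95.8298 FPKM unlabelled (limma adjusted p = 0.0322). MT-ND3 rose as well, with 10868.5 and 19121.2 FPKM labelled against 150.266 FPKM unlabelled (limma adjusted p = 0.0397). MT-ND2 had 8481.68 and 5476.92 FPKM labelled against 118.339 FPKM unlabelled, and missed the threshold (limma adjusted p = 0.0567). MT-ND6 is the one protein gene encoded on the opposite strand to the others in vertebrate mitochondria. It had 21702.4 FPKM in labelled replicate 1 and 96332.8 FPKM in replicate 2, a ratio of 4.44 between replicates, against 549.98 FPKM unlabelled (limma adjusted p = 0.141). Both labelled values of MT-ND6 lay well above the unlabelled one, and it had the widest gap between replicates among the 13.

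The genes of ATP synthase, which makes ATP, both rose. The mt-atp8 gene had 213489 and 372792 FPKM in labelled RNA against 3608.52 FPKM in unlabelled RNA, a log2 change of 5.86 ± 0.95 (SE; limma adjusted p = 0.0139). MT-ATP6 had 40792.2 and 46492.4 FPKM labelled against 598.14 FPKM unlabelled (limma adjusted p = 0.0239). These 2 reading frames overlap in animal mitochondria, and how reads of overlapping genes were assigned is not given in the sources used here.

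Cytochrome c oxidase, complex IV, has 3 genes there. MT-CO2 rose, with 9304.54 and 6131.65 FPKM labelled against 75.7679 FPKM unlabelled (limma adjusted p = 0.0321), and so did MT-CO3, with 9628.29 and 10978.4 FPKM against 128.244 FPKM (limma adjusted p = 0.0322). MT-CO1 had 14718.7 and 42591.7 FPKM labelled against 326.066 FPKM unlabelled and did not pass (limma adjusted p = 0.0862). MT-CYB, the cytochrome b of complex III, had 7129.35 and 7119.52 FPKM labelled against 127.785 FPKM unlabelled and did not pass either (limma adjusted p = 0.0585).

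The short genes mt-nd4l and mt-atp8 held most of the summed mitochondrial FPKM. As FPKM is divided by transcript length, such a share is not a share of reads, and the effect of length on it was not tested. The mt-nd4l share of the 13-gene sum was 44.0% and 31.2% in the labelled libraries and 30.3% in the unlabelled library. For mt-atp8 the share was 29.2% and 36.7% labelled and 39.3% unlabelled, and for MT-ND6 it was 2.97% and 9.48% labelled and 5.99% unlabelled. Ribosomal and transfer RNA genes of the mitochondrial genome had 0 entries in the table used here.

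The mitochondrial calls depended on scaling while the direction did not. With size factors or the upper quartile 1 of the 13 passed, and with 1 nuclear sum 11 passed, all with higher values in labelled RNA. The nuclear genes whose products work in the same organelle were counted apart. Of 34 tested nuclear genes of oxidative phosphorylation, 0 passed and the median log2 change was 0.21. Of these, 18 (52.9%) lay above unlabelled RNA in both labelled libraries, near the 53.2% of all IDs. Of 7 genes for mitochondrial gene expression in the table, 6 were tested, 0 passed, 3 (42.9%) lay above in both and the median was -0.28. ELAC2, which trims mitochondrial transfer RNA, had 28.3 and 4.97 FPKM labelled against 3.07 FPKM unlabelled.

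**Figure D2:**
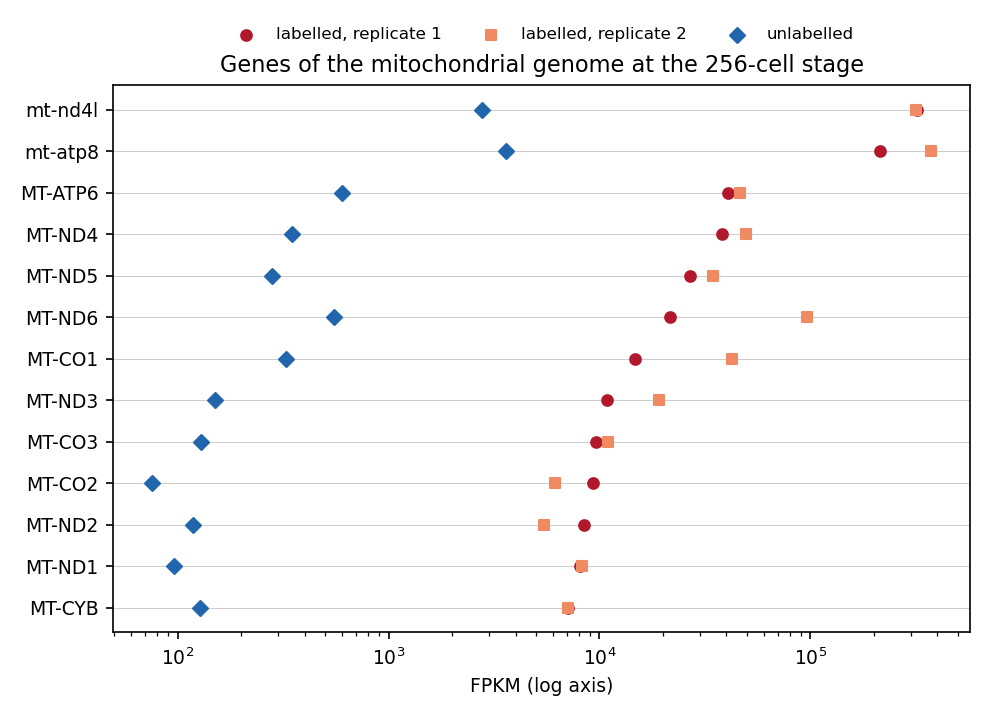
FPKM on a log axis for the 13 genes of the mitochondrial genome at the 256-cell stage, in labelled replicate 1, labelled replicate 2 and the unlabelled library, ordered by labelled replicate 1. The lowest labelled point is 5476.92 FPKM (MT-ND2) and the highest unlabelled point is 3608.52 FPKM (mt-atp8).

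The 20 named nuclear genes have the largest rises among ordinary symbols, by the weaker replicate. Clone names and IDs without a symbol were left out, and some of those rose further. Of the 20, 12 encode transcription factors by their names, and the share of such genes among all ordinary symbols was not counted. All but srsf5a had less than 1 FPKM without the label. The 44 IDs with a symbol past 4-fold in both libraries had a median FPKM of 23.1 and 9.35 in labelled RNA, against 0.161 in unlabelled RNA. Of these 44, 39 were below 1 FPKM in the unlabelled library when the 10 listed at 0 are counted in. All 44 passed the filter on low values, which the 4-fold rule in both libraries already requires, and 13 passed limma. They were chosen by the same contrast, so their count against the 1.13% of all genes is a description. In each of the 44, replicate 1 lay above replicate 2.

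Among the 20 named genes, the zinc-finger genes znf1089 and znf1127 had the smallest limma adjusted p. Some IDs without a symbol had smaller ones. The gene znf1089 (ENSDARG00000088847) had 65.7 and 53.8 FPKM in labelled RNA against 0.423 FPKM in unlabelled RNA. Its replicates lay close together on the deposited scale, and it rose by a log2 of 4.98 ± 0.81 (SE; limma adjusted p = 0.0139). The related znf1127 (ENSDARG00000093220) rose too, with 17.3 and 12.9 FPKM labelled against 0.120 FPKM unlabelled, a log2 change of 3.41 ± 0.64 (SE; limma adjusted p = 0.0216). The blf gene (ENSDARG00000043126), bloody fingers, is needed for gastrulation movements and blood formation in zebrafish. It had 52.4 and 22.5 FPKM labelled against 0.348 FPKM unlabelled, a log2 change of 4.29 ± 0.86 (SE; limma adjusted p = 0.0321). The draculin-like drll.3 had 36.2 and 10.8 FPKM labelled against 0.196 FPKM unlabelled and did not pass (limma adjusted p = 0.0698).

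Homeobox genes stood among the highest of the 20. The Iroquois gene irx7 (ENSDARG00000002601) had 92.9 and 33.2 FPKM labelled against 0.114 FPKM unlabelled, and rose by a log2 of 5.24 ± 0.96 (SE; limma adjusted p = 0.0221). The mix-type gene mxtx2, which directs formation of the yolk syncytial layer in zebrafish, had 229 and 27.7 FPKM labelled against 0.0864 FPKM unlabelled. Its log2 change of 5.80 ± 1.48 (SE) was the largest of the 20 named nuclear genes, yet its replicates lay far apart and it did not pass (limma adjusted p = 0.127).

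Hairy-related repressors, basic helix-loop-helix proteins that act downstream of or beside Notch signalling, were represented by a neighbouring pair. The gene her5 (ENSDARG00000008796), known from the midbrain-hindbrain boundary, had 21.3 and 13.6 FPKM labelled against 0.180 FPKM unlabelled. It rose by a log2 of 3.51 ± 0.68 (SE; limma adjusted p = 0.0242). Its neighbour her11 had 71.2 and 11.8 FPKM labelled against 0.298 FPKM unlabelled, with a wide gap between replicates, and did not pass (limma adjusted p = 0.168). In the GRCz12tu gene order, which is of another build and was used for names and neighbours only, 33 of the 44 symbols were matched. They held 3 pairs of adjacent genes: her11 with her5, si:rp71-45k5.2 with zgc:113424, and GPER1 with h3f3a.

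Forkhead, Krüppel-like, GATA and grainyhead factors followed. The forkhead gene foxd5 (ENSDARG00000042485), of the early neural plate, had 20.6 and 9.50 FPKM labelled and was listed at 0 in the unlabelled library (limma adjusted p = 0.0364). The Krüppel-like klf17 had 183 and 43.3 FPKM labelled against 0.726 FPKM unlabelled, a log2 change of 5.28 ± 1.18 (SE; limma adjusted p = 0.0586). GATA3 had 30.5 and 13.6 FPKM labelled against 0.631 FPKM unlabelled (limma adjusted p = 0.0729), and grhl3 had 37.0 and 11.6 FPKM against 0.107 FPKM (limma adjusted p = 0.0833). Only foxd5 of these 4 passed, and in each of them both labelled values lay far above the unlabelled one.

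Ligands and receptors made up a smaller share of the leading genes. FGF20 (ENSDARG00000007356), a fibroblast growth factor, had 11.6 and 7.61 FPKM labelled and was listed at 0 in unlabelled RNA, and it passed (limma adjusted p = 0.0322). The Wnt ligand wnt11f2, known for its part in gastrulation movements, had 34.4 and 7.25 FPKM labelled against 0.0470 FPKM unlabelled (limma adjusted p = 0.225). The apelin receptor aplnrb, which acts in early mesendoderm, had 52.2 and 9.20 FPKM labelled against 0.158 FPKM unlabelled (limma adjusted p = 0.266). GPER1, a membrane oestrogen receptor, had 24.6 and 6.34 FPKM labelled and was listed at 0 unlabelled (limma adjusted p = 0.146). In wnt11f2, aplnrb and GPER1 the labelled replicates differed widely, and none of these 3 passed.

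The remaining leading genes act in growth arrest, replication, splicing and the cell cortex. GADD45B (ENSDARG00000013576), a stress-induced growth-arrest gene, had 64.5 and 24.0 FPKM labelled against 0.247 FPKM unlabelled, and rose by a log2 of 4.59 ± 0.98 (SE; limma adjusted p = 0.0415). The lrwd1 gene (ENSDARG00000035147), whose product associates with the origin recognition complex, had 7.43 and 6.77 FPKM labelled and was listed at 0 unlabelled (limma adjusted p = 0.0397). The splicing factor gene srsf5a had 73.4 and 20.4 FPKM labelled against 1.63 FPKM unlabelled (limma adjusted p = 0.305). The actin-associated marcksl1b had 37.6 and 11.4 FPKM labelled against 0.543 FPKM unlabelled (limma adjusted p = 0.146). Of these 4, GADD45B and lrwd1 passed.

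Of the 20 named genes, 9 passed, and 4 genes whose symbols are clone names passed beside them, si:rp71-45k5.2 and si:dkey-199k11.6 among them. The highest of these 4, ENSDARG00000040141, had 203 and 86.2 FPKM labelled against 0.685 FPKM unlabelled. All 9 passed under both size factors and the upper quartile. None of the 9 passed when libraries were scaled to 1 nuclear sum, or with the 256-cell libraries alone in the fit. Ordinary symbols past 4-fold but outside the 20 were inka1a, apoeb, SOX3, slc25a55a, LFNG, NFE2, DUSP6, h3f3a, CXCR4, cst3, NHP2, lft2, HNRNPL, tmsb4x and ndr1.

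**Figure D3:**
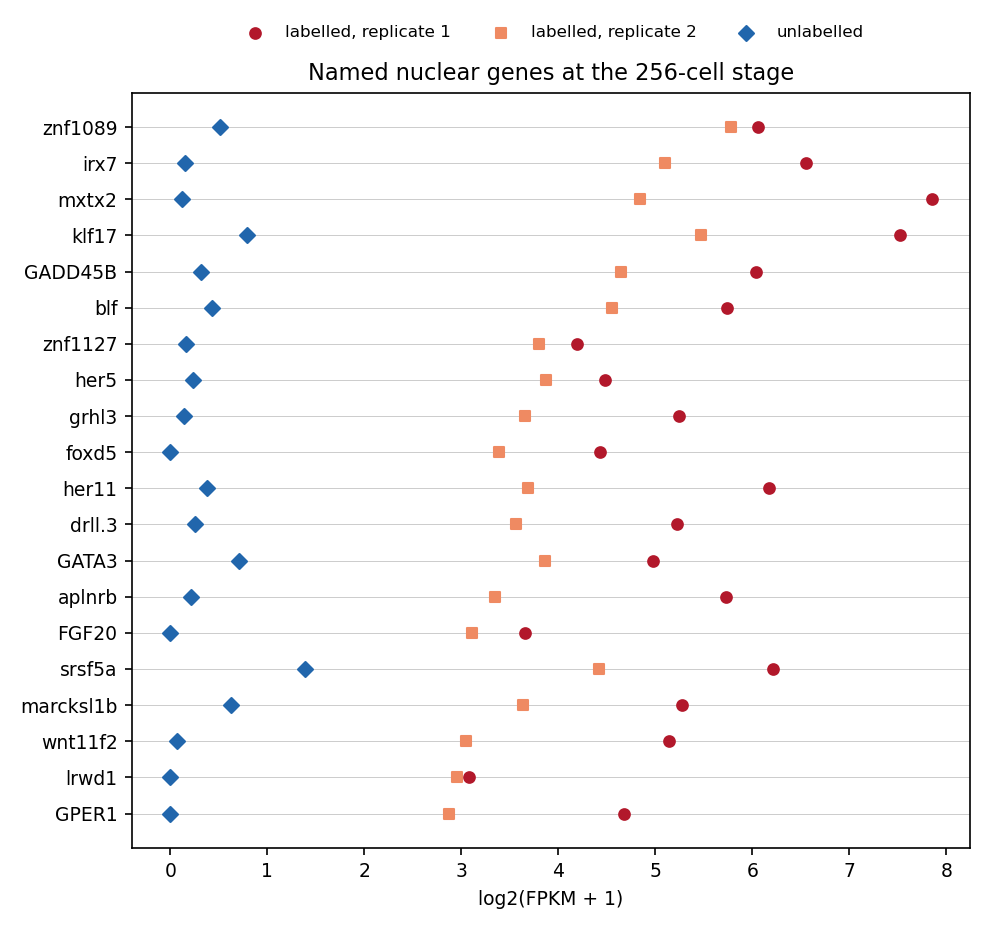
Levels as log2(FPKM + 1) of the 20 named nuclear genes at the 256-cell stage, in labelled replicate 1, labelled replicate 2 and the unlabelled library. All labelled points lie to the right of every unlabelled point, and replicate 1 lies to the right of replicate 2 in each gene, from a narrow gap in lrwd1 to a wide one in mxtx2.

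Most nuclear IDs past 4-fold had no gene symbol, and they reached the highest levels. They numbered 112 of the 156, or 71.8%, against 21.7% of all nuclear IDs. Their median FPKM was 5715 and 4619 in labelled RNA against 1.62 in unlabelled RNA. In unlabelled RNA of the 128-cell and 512-cell stages their median was 50.5 and 43.1 FPKM. Among them, 45 IDs fell into 15 sets with identical values in all 9 libraries. How reads were split among near-identical copies is not given in the sources used here, so the IDs of a set count as 1 measurement. Of all 156 nuclear IDs past 4-fold, with or without a symbol, 111 had no partner identical in all 9 libraries. Of these 111, 44 have a symbol, and 52 of the 111 passed limma. Some of the 52 share their 256-cell values with a set and differ slightly at 512-cell only. An example is the IDs with 17287 and 13828 FPKM labelled against 130 FPKM unlabelled. The count of 52 thus overstates the separate measurements.

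ENSDARG00000086436, whose values 2 further IDs share, had 22064 and 15837 FPKM in labelled RNA and was listed at 0 in unlabelled RNA (limma adjusted p = 0.00132). ENSDARG00000087609 had 27808 and 13795 FPKM labelled and was also listed at 0 unlabelled (limma adjusted p = 0.0019). The 0 holds for the unlabelled 256-cell library alone. Unlabelled RNA of the 128-cell and 512-cell stages had 53.1 and 176 FPKM for the first ID, and 56.3 and 125 FPKM for the second. Their log2 changes were 13.8 each at 256-cell, and 6.91 and 7.22 at 512-cell. Of the 78 nuclear IDs that passed, 65 had no symbol and 26 stood in 11 identical-value sets. Some of these sets share their 256-cell values with each other, so fewer than 11 are separate at this stage. What these IDs encode is not annotated in the tables used here, so no role is given.

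IDs without a symbol also led the opposite side. All 11 IDs past 4-fold below were without a symbol, 7 of them in 2 identical-value sets. ENSDARG00000085949 had 3787 and 6705 FPKM labelled against 35745 FPKM unlabelled, and ENSDARG00000088381 had 1.56 and 12.6 FPKM labelled against 75.2 FPKM unlabelled. In all 11, replicate 1 lay below replicate 2, which is the reverse of the order in the 44 rising symbols. None of the 11 passed limma. The most abundant values in unlabelled RNA were 346948 FPKM, shared by 4 IDs, which had 14713 and 289127 FPKM in the labelled replicates.

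Of the 919 nuclear IDs below unlabelled RNA in both labelled libraries, 626 have a symbol. The 8 ordinary symbols with the most negative ratios all failed the test, and their values are a description. The tnrc6bb.2 gene, of the TNRC6 family that acts with Argonaute in microRNA silencing, was listed at 0 in labelled replicate 1 and had 0.550 FPKM in replicate 2, against 4.55 FPKM unlabelled (limma adjusted p = 0.250). LYST, a regulator of lysosome traffic, had 1.54 and 1.57 FPKM labelled against 6.35 FPKM unlabelled (limma adjusted p = 0.814). LAMTOR1, a subunit of the Ragulator complex at the lysosome, had 0.567 and 0.947 FPKM labelled against 4.02 FPKM unlabelled (limma adjusted p = 0.874). On the deposited scale these 3 had the labelled replicates close together and both below the unlabelled library. At 512-cell LYST and LAMTOR1 lay below in both labelled libraries again. There tnrc6bb.2 lay above, with 2.83 and 0.998 FPKM labelled, and was listed at 0 unlabelled.

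The transport genes GBF1, SEC23B and LMAN1, which act between endoplasmic reticulum and Golgi, lay lower as well. SEC23B had 4.57 and 4.28 FPKM labelled against 11.3 FPKM unlabelled, and LMAN1 had 18.0 and 21.2 FPKM labelled against 45.3 FPKM unlabelled. GBF1 had 2.04 and 1.32 FPKM labelled against 5.99 FPKM unlabelled. NFYC, a subunit of the CCAAT-binding factor, had 2.64 and 5.74 FPKM labelled against 14.6 FPKM unlabelled, and TMEM51 had 5.08 and 4.62 FPKM against 11.5 FPKM. Each of these 5 had a limma adjusted p of 0.950. At 512-cell SEC23B, LMAN1 and TMEM51 lay below in both labelled libraries again. There NFYC lay above, with 5.87 and 4.61 FPKM labelled against 4.45 FPKM unlabelled. The unlabelled value of GBF1 lay between those of the replicates at that stage.

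Gene lists gave the wider picture. Each was read beside 1.13% of all genes passing as higher and 53.2% of IDs above unlabelled RNA in both libraries. The median log2 change of all tested genes is 0 by construction. On other scales fewer of the 8956 nuclear IDs lay above in both. They numbered 3584 with size factors, 3445 at the upper quartile and 1794 with 1 nuclear sum. Of 39 early zygotic regulators in the table, 37 were tested, 6 rose, 35 lay above unlabelled RNA in both libraries and 15 did so by 4-fold, with a median log2 change of 1.79. The 6 were znf1089, znf1127, irx7, her5, blf and foxd5. The list was assembled with earlier results of these data known, so its direction is not independent evidence. With size factors 14 passed, at the upper quartile 17, and with 1 nuclear sum 0. SOX3, of the SoxB1 group, had 22.8 and 4.66 FPKM labelled and was listed at 0 unlabelled (limma adjusted p = 0.228).

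Genes that pattern the germ layers and the body axis were detected in labelled RNA at lower levels. Of 16 in the table, 13 were tested, 0 passed and 12 of the 16 lay above in both libraries, with a median log2 change of 1.21. With size factors 2 passed, at the upper quartile 3, and with 1 nuclear sum 0. The Nodal ligand gene ndr1 had 12.5 and 3.09 FPKM labelled, and the Nodal antagonist gene lft2 had 22.8 and 3.29 FPKM labelled. The Wnt antagonist gene dkk1b had 10.1 and 2.63 FPKM labelled. These 3 genes were listed at 0 in unlabelled RNA, and their limma adjusted p values were 0.277, 0.651 and 0.446 in the order given. The BMP-like admp had 8.69 and 2.59 FPKM labelled against 0.0602 FPKM unlabelled. In all 4 the value of replicate 1 was several times that of replicate 2.

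Lists of cell identities were read next. Of 10 enveloping layer genes in the table, the outer epithelium of the embryo, 9 were tested and 0 passed, 9 lay above in both libraries, and the median log2 change was 0.84. With size factors or the upper quartile 3 of the 9 passed, and with 1 nuclear sum 0. The 3 past 4-fold in both libraries were klf17, grhl3 and GATA3, and klf2b had 10.5 and 2.62 FPKM labelled against 0.355 FPKM unlabelled. The FPKM of all 10 summed to 360 and 98.8 labelled and 45.2 unlabelled. Most of that unlabelled sum lay in members not named here. The yolk syncytial layer list had 1 gene in the table, mxtx2. Of 13 germ plasm genes 12 were tested, 0 passed and 11 lay above in both, with a median of 0.51. With size factors 9 of the 13 lay above in both and at the upper quartile 8. With 1 nuclear sum 4 did, where 1794 of 8956 nuclear IDs lay above. The RNA helicase gene DDX4 had 70.6 and 12.1 FPKM labelled against 4.51 FPKM unlabelled, and NANOS3, a translational repressor of germ cells, had 6.36 and 7.36 FPKM against 2.65 FPKM. Of 38 genes of differentiated tissue 1 was in the table, actc1a, with 0.396 and 0.211 FPKM labelled against 0.0347 FPKM unlabelled.

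The broad families of transcription factors were counted as well. Of 102 zinc-finger genes in the table, 78 were tested, 3 rose (znf1089, znf1127 and blf) and 63 lay above in both libraries, with a median log2 change of 0.10. Of 63 genes of the homeobox, forkhead, Sox, Krüppel-like, T-box, GATA and Hairy-related families, 55 were tested, 3 rose (irx7, her5 and foxd5) and 37 lay above in both, with a median of 0.09. With size factors 8 of the 55 and 4 of the 78 zinc-finger genes passed, and with 1 nuclear sum 0 of either list passed.

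Stress and immediate early genes held 1 gene that rose among 14 tested, GADD45B, and 13 of 16 lay above in both libraries, with a median log2 change of 0.93. DUSP6, a phosphatase that limits ERK signalling, had 21.3 and 4.33 FPKM labelled against 0.0301 FPKM unlabelled (limma adjusted p = 0.424). IER5 had 4.21 and 1.33 FPKM labelled and was listed at 0 unlabelled. Cell cycle genes had 1 gene that rose among 30 tested, lrwd1, with 19 of 32 above in both and a median of 0.13. GMNN, the geminin that restrains replication licensing, had 186 and 55.1 FPKM labelled against 16.5 FPKM unlabelled (limma adjusted p = 0.950).

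No histone gene passed. Of 10 tested, 4 lay above in both libraries, with a median log2 change of -0.14. The H3.3 gene h3f3a had 122 and 30.2 FPKM labelled against 5.34 FPKM unlabelled (limma adjusted p = 0.875), and the H2A.Z gene H2AZ2 had 50.4 and 12.7 FPKM against 2.65 FPKM. The gene h3f3d had 271 and 191 FPKM labelled against 74.1 FPKM unlabelled, and h2ax1 had 5.94 and 2.00 FPKM against 1.48 FPKM. These 4 were the histone genes above the unlabelled library in both replicates, and the unlabelled value of the other 6 lay between those of the replicates.

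No gene of RNA processing or protein synthesis passed. Of 50 splicing and hnRNP genes in the table, 49 were tested, 0 passed, and 43 (86.0%) lay above in both libraries, with a median log2 change of 0.75. HNRNPL had 14.3 and 11.8 FPKM labelled against 2.01 FPKM unlabelled, and SRSF3 had 36.5 and 9.09 FPKM against 1.62 FPKM. With size factors 39 of the 50 lay above in both and 1 passed, and with 1 nuclear sum 17 lay above and 0 passed. Of 54 tested ribosomal protein genes 0 passed and 34 lay above, with a median of 0.47. Of 57 translation factor genes 54 were tested, 0 passed and 37 lay above, with a median of 0.38. With size factors 31 ribosomal protein and 33 translation factor genes lay above, and with 1 nuclear sum 14 and 17. Of all 8956 nuclear IDs, 3584 lay above with size factors and 1794 with 1 nuclear sum.

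The remaining lists had no passing gene. Maternal mRNAs had 0 of 30 passing, 19 above in both libraries and a median log2 change of 0.33. With size factors 15 of the 30 lay above, where 3584 of 8956 nuclear IDs did. With 1 nuclear sum 6 of the 30 lay above, where 1794 of 8956 did. The helicase gene DDX5 led the maternal mRNAs with 53.9 and 20.9 FPKM labelled against 6.37 FPKM unlabelled. Transcription machinery had 0 of 60 tested passing, 34 of 62 above and a median of 0.04, and POLR2F had 7.16 and 5.71 FPKM labelled against 1.42 FPKM unlabelled. Chromatin and DNA methylation genes had 0 of 9 tested passing, 5 of 10 above and a median of 0.22, and small RNA pathway genes had 0 of 7 passing, 2 above and a median of -0.28. The 2 structural non-coding RNAs had 0 above in both, and microRNA genes had 0 entries in the table used here.

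**Figure D4:**
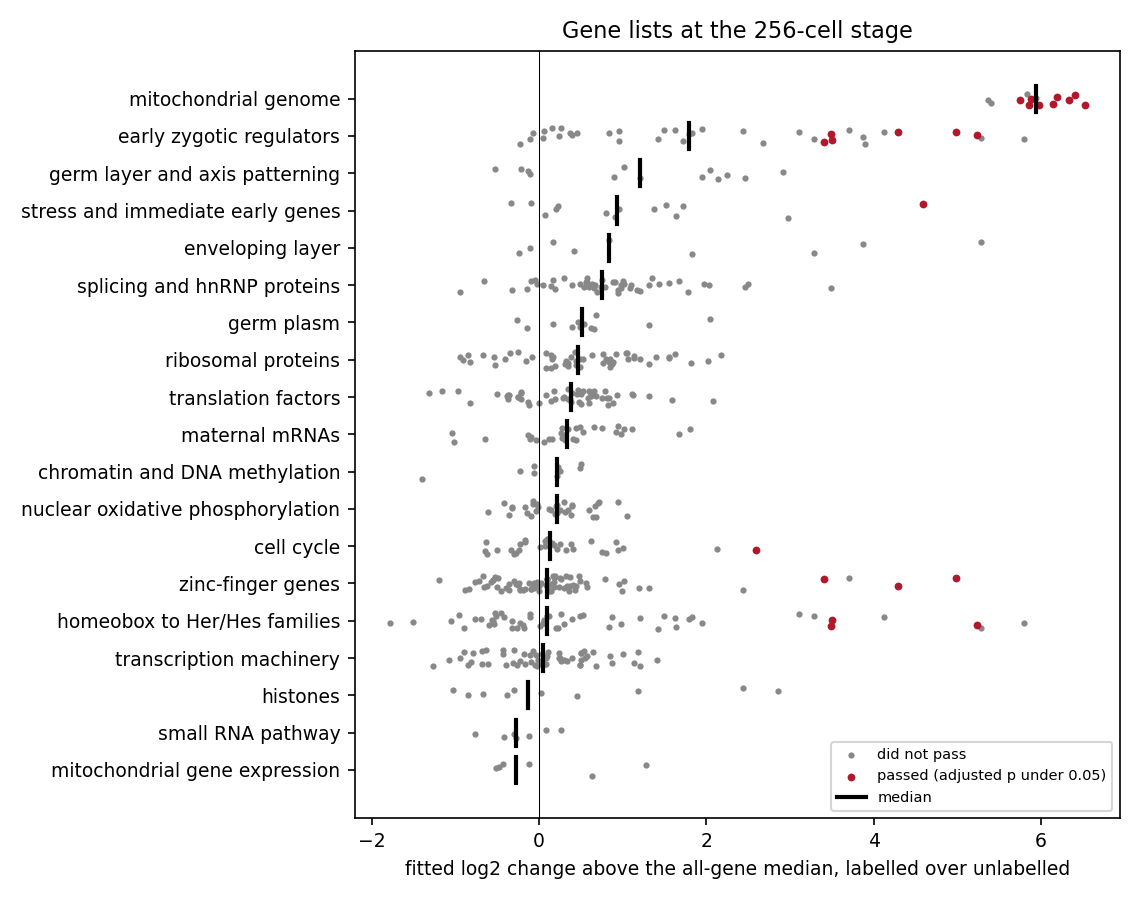
Fitted log2 change of labelled over unlabelled RNA at the 256-cell stage, above the median of all tested genes, with 1 point per tested gene, red where it passed and grey where it did not, and a black bar at the list median. The mitochondrial genome has its median at 5.95 and the early zygotic regulators at 1.79, while the other lists shown have medians between -0.28 and 1.21.

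The plot of the lists shows that a list near 0 can still hold single genes far to the right, as in the zinc-finger and homeobox to Her/Hes families. Lists with 1 or 2 tested genes are not drawn.

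The 4-fold rule used the 256-cell libraries alone, and the libraries of the neighbouring stages were read beside it. The stages share the filter on low values and the limma estimate of the spread. At the 128-cell stage 1512 of 8969 IDs (16.9%) lay above unlabelled RNA in both labelled libraries and 67 (0.747%) did so by 4-fold. At the 512-cell stage 6592 (73.5%) lay above and 412 (4.59%) did so by 4-fold. By limma 6 genes (0.078%) were higher at 128-cell, of which 5 were nuclear, and 286 (3.72%) were higher at 512-cell, of which 273 were nuclear. Genes lower by limma numbered 0 at 128-cell and 17 (0.221%) at 512-cell. The all-gene median of the log2 change was -0.18 at 128-cell, 0.43 at 256-cell and 0.73 at 512-cell, and changes are given above it.

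The 156 nuclear IDs past 4-fold at 256-cell were largely above unlabelled RNA at the earlier stage too. At 128-cell 137 of them (87.8%) lay above in both labelled libraries, against 16.7% of all nuclear IDs, and 5 passed limma. At 512-cell all 156 lay above, against 73.5% of all nuclear IDs, and 125 passed limma. The IDs with and without a symbol are given apart, with no test between them. At 128-cell 53 of the 156 were past 4-fold in both libraries, all of them without a symbol and 0 of the 44 with one. Of these 53, 28 stood in 12 identical-value sets. The 44 with a symbol had a median of 1.054 and 0.502 FPKM in the labelled 128-cell libraries, and a value below 3 FPKM cannot reach 4-fold in FPKM + 1. At 512-cell 44 of 44 with a symbol and 110 of 112 without were past 4-fold.

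Median log2 changes were as follows. For the 44 with a symbol they were 0.77 at 128-cell, 3.23 at 256-cell and 4.27 at 512-cell. For the 112 without a symbol they were 2.35, 6.65 and 5.94 in the same order. For the 13 mitochondrial genes they were 6.11, 5.95 and 5.87. The mitochondrial sum was 53.8-fold and 97.9-fold that of unlabelled RNA at 128-cell, and 81.0-fold and 101-fold at 512-cell, so the mitochondrial excess was already present at the earliest stage measured. Mitochondrial genes passing limma numbered 1 at 128-cell, 9 at 256-cell and 13 at 512-cell.

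Single regulators show the course by library. At 128-cell znf1089 had 1.62 and 2.18 FPKM labelled against 0.532 FPKM unlabelled, and at 512-cell 183 and 230 FPKM against 1.06 FPKM. At 128-cell irx7 had 4.18 and 1.87 FPKM labelled against 0.285 FPKM unlabelled, and at 512-cell 240.0 and 109 FPKM against 0.304 FPKM. For mxtx2 the values were 10.0 and 2.08 FPKM labelled against 0.183 FPKM unlabelled at 128-cell, and 574 and 84.9 FPKM against 0.415 FPKM at 512-cell. In these 3 genes both labelled libraries lay above the unlabelled one at every stage, and the labelled values grew with stage in each replicate while the unlabelled ones stayed near or below 1 FPKM.

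FGF20 was listed at 0 in the unlabelled libraries of all 3 stages, and had 2.89 and 1.91 FPKM labelled at 128-cell, 11.6 and 7.61 FPKM at 256-cell and 16.19 and 11.96 FPKM at 512-cell. At 128-cell lrwd1 had 0.0268 and 0.222 FPKM labelled against 0.212 FPKM unlabelled, so 1 labelled library lay below, and at 512-cell it had 27.7 and 19.2 FPKM against 0.122 FPKM. Of the 20 named genes 0 passed limma at 128-cell and all 20 passed at 512-cell, where the adjusted p of mxtx2 was 0.0235 and that of wnt11f2 was 0.0425.

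A gene past the threshold at one stage and not at another is not thereby shown to differ between stages. The difference of the label effect itself was tested in the same fit. In this fit, which has no replicate block, 0 genes passed between 256-cell and 128-cell, with 130 larger and 3 smaller at an unadjusted p under 0.05, and the smallest limma adjusted p was 0.877. Between 512-cell and 256-cell 0 genes passed, with 88 larger and 13 smaller at an unadjusted p under 0.05, and the smallest limma adjusted p was 1. Both counts of 0 depended on leaving out the block. With a replicate block 205 genes passed for the earlier step and 33 for the later one. Adding size factors to the block gave 85 and 24. The absence of passing genes is thus not evidence that the label effect was equal across stages.

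**Figure D5:**
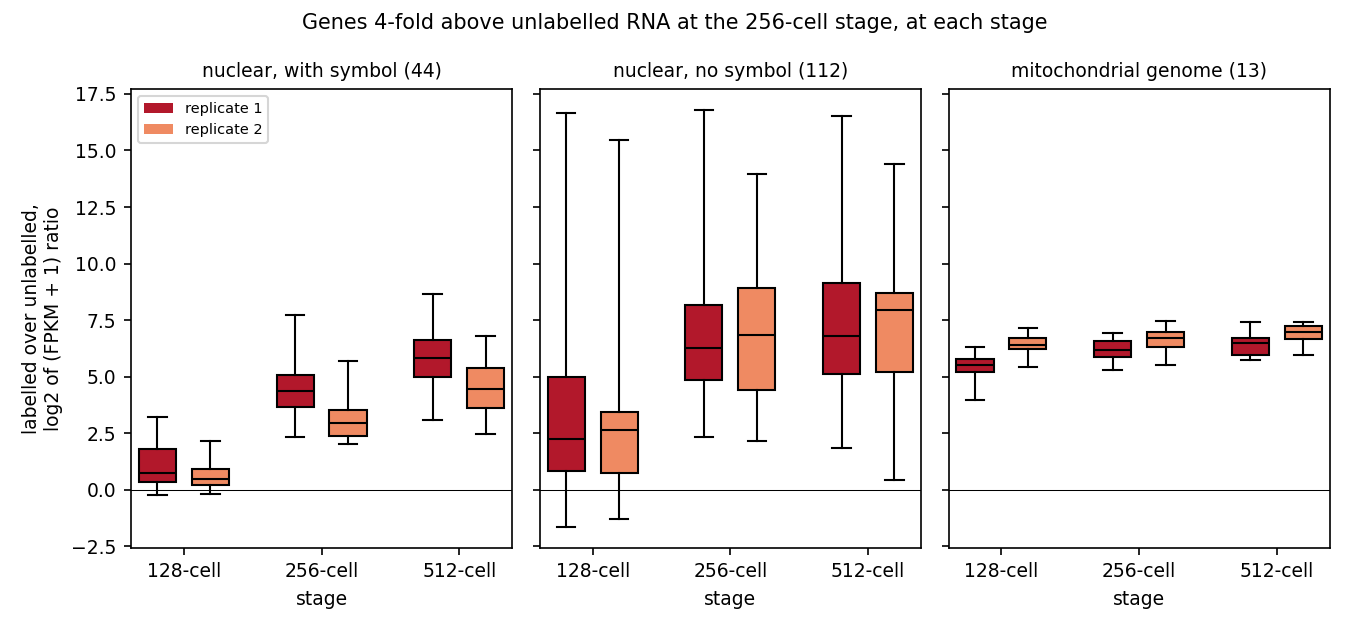
Log2 ratio of FPKM + 1, labelled over unlabelled, at the 128-cell, 256-cell and 512-cell stages for the 44 nuclear IDs with a symbol and the 112 without one that were past 4-fold at 256-cell, and for the 13 mitochondrial genes. Boxes span the quartiles with a line at the median and whiskers at the extremes, with labelled replicate 1 to the left of replicate 2. The nuclear boxes with a symbol climb with stage, and the mitochondrial boxes lie high at every stage. Single mitochondrial folds at 128-cell ranged between 15.7 and 78.3 in replicate 1 and between 43.6 and 143 in replicate 2. At 512-cell they ranged between 52.9 and 176 in replicate 1 and between 62.4 and 171 in replicate 2. Ratios drawn here are not taken above the all-gene median, unlike the medians in the text.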

How the data were processed

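RNA from AB zebrafish embryos was labelled, biotinylated, bead-purified, amplified and sequenced with 15 PCR cycles, per the labels' protocols. Per the submitters' processing notes, the authors used CASAVA 1.7, TopHat 1.3.3, Cufflinks 2.0.2 and build Zv9 to make the deposited FPKM values. Annotation version, strand, multiple matches and scaling are not given in the sources used here, and positions were not used. Deposited tables of 1 FPKM value per stage were not used.

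Of 8969 IDs, 7028 (78.4%) carry a symbol, printed in its deposited case. From the FPKM, log2 values with a pseudocount of 1 were computed. A gene was tested where 2 or more libraries reached 1 FPKM (7697 genes). Group means of all 9 libraries were fitted in limma 3.58.1 (R 4.3.3) with a mean-variance trend, two-sided, on 3 residual degrees of freedom, and p-values were adjusted over all 7697 genes by Benjamini-Hochberg. The procedure was tested on simulated data with independent noise in each library, so a difference shared by replicate number was not covered.

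Members and gene lists were chosen with earlier results of these data known. Named genes are the 20 largest rises and 8 largest falls by the weaker replicate among ordinary symbols, all mitochondrial genes, and up to 4 genes of each list with the smallest p. Genes outside this rule (SOX3 and those listed by name only) were chosen after their values were seen. Alternatives changed the pseudocount, filter, scaling, block, trend, libraries fitted and background. A few genes that the rule names are not reported here.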

Additional observations from a re-analysis of the deposited data

How the results depend on the processing

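With labelled against unlabelled RNA at the 256-cell stage as reported, 78 nuclear genes rose, 0 fell, 9 of 13 mitochondrial genes and 6 early zygotic regulators rose, and 5 and 125 of the nuclear IDs past 4-fold passed at 128-cell and 512-cell. A pseudocount of 0.1 gave 145 nuclear genes, 17 early zygotic regulators, 8 IDs at 128-cell, 8 genes with a larger effect at 256-cell than at 128-cell, and 409 nuclear IDs past 4-fold. Without the filter on low values 3 IDs passed at 128-cell. Size factors gave 5 lower nuclear genes, 1 mitochondrial gene, 14 early zygotic regulators, 3158 IDs below in both libraries and 21 past 4-fold below. The upper quartile gave 123 nuclear genes, 7 lower ones, 1 mitochondrial gene, 17 early zygotic regulators, 3268 IDs below and 21 past 4-fold below. With 1 nuclear sum, 7 nuclear genes passed as lower, 0 early zygotic regulators and 14 IDs at 128-cell passed, 1794 IDs lay above, and 28 were past 4-fold below. Without the mean-variance trend 12 IDs passed at 128-cell and 3 genes differed between 256-cell and 128-cell. With the 256-cell libraries alone, 5 mitochondrial genes and 1 early zygotic regulator passed. With all 3 unlabelled libraries as background, 248 nuclear genes rose, 21 fell and 23 early zygotic regulators rose. Nuclear genes that rose numbered 100 with size factors, 68 with 1 nuclear sum and 62 with the 256-cell libraries alone. They were not the same genes throughout. Of the 78 as reported, 55 passed again with size factors and 63 at the upper quartile. With 1 nuclear sum 44 of the 78 passed again, and with the 256-cell libraries alone 39. The cause of these changes was not tested.

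Leaving out each labelled replicate in turn gave 104 to 231 nuclear genes higher, 0 to 10 lower, 8 to 13 mitochondrial genes and 8 to 22 early zygotic regulators. IDs passing numbered 9 to 12 at 128-cell and 130 to 154 at 512-cell. Differences between stages numbered 0 to 6 (256-cell against 128-cell) and 0 to 2 (512-cell against 256-cell). IDs above in both labelled libraries numbered 4895 to 7894, below 1048 to 4023, past 4-fold above 157 to 768 and past 4-fold below 31 to 49, since a single library then decides. The library whose loss moved most of these counts furthest was labelled 256-cell replicate 2, without which 231 nuclear genes passed, 768 IDs were past 4-fold and 7894 lay above. Without labelled 256-cell replicate 1, 4023 IDs lay below. A group left with 1 library was assumed to vary like the others.

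Whether replicate numbers pair the labelled libraries was examined through their deviations. Deviations from the stage mean correlated at 0.734 (128-cell with 256-cell), 0.762 (256-cell with 512-cell) and 0.658 (128-cell with 512-cell). With size factors the deviations correlated at 0.736, 0.743 and 0.664 in the same order. The labelled libraries thus differed by replicate number in a similar way at each stage. The fit as reported has no block, so this shared difference counts as spread there. What a number shares is not stated, and with 2 libraries per stage the check cannot settle it. The unlabelled libraries carry no number, so their place in a block is assumed. With a replicate block, unlabelled libraries taken as number 1, 3498 nuclear genes rose, 102 fell and 30 early zygotic regulators rose. Then 82 IDs passed at 128-cell, and 205 and 33 genes differed between stages. A replicate block with size factors gave 1105 higher and 709 lower nuclear genes, 26 early zygotic regulators, 79 IDs at 128-cell, and 85 and 24 genes between stages. A replicate block with the unlabelled libraries midway gave 1545 higher, 106 lower, 26 early zygotic regulators, 91 IDs, and 205 and 33 genes. These last 2 fits were chosen after seeing the data.

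Of single named genes, 17 values changed sign. DGCR8 was at -0.034 with a pseudocount of 0.1, -0.047 with size factors, -0.055 at the upper quartile and -0.033 with 1 nuclear sum, and between -0.084 and 0.23 when a replicate was left out. The values of actc1a were 0.93 with a pseudocount of 0.1, 0.22 with size factors, 0.25 at the upper quartile, 0.11 with 1 nuclear sum, 0.26 with a replicate block and size factors, and between -0.37 and 0.17 when a replicate was left out. With a replicate block and size factors EZH2 was at -0.0063 and AGO2 at -0.021. When a replicate was left out LRPPRC ranged between -0.27 and 0.017, TARBP2 between -0.295 and 0.054, 5_8S_rRNA between -0.24 and 0.90, and UQCRH between -0.098 and 0.77. None of these genes passed as reported. The other named values held their direction, with 1213 on the same side of the threshold, 377 newly past it and 50 no longer past it. Depth is unknown, so no counting interval bounds any value.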
